A study of Mus musculus with 2 samples.

Results

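The cytochrome P450 genes of families 2 and 4 were followed through 2 single-cell libraries of mouse kidney cortex. Members were all gene symbols made of Cyp2 or Cyp4 followed by a lower-case letter and a number, leaving out symbols that end in -ps, and 69 of the 31053 genes in the files met this rule (48 Cyp2 and 21 Cyp4). Over the retained cells, 45 members had at least 1 unique molecular identifier (UMI, the tag that marks one captured RNA molecule) and 24 had 0 UMIs. The 23 members with at least 200 UMIs (14 Cyp2 and 9 Cyp4) held 98.9% of all member UMIs and are described by name. The first library, Pod-I_Ppo-1, came from mice with podocyte-specific expression of I-PpoI, a homing endonuclease that cuts DNA at a few fixed sites, and is called the I-PpoI library. The second came from wild-type mice, and both groups were 12 weeks old. The number of mice pooled per library and the driver of the I-PpoI transgene are not given in the sources used here. Each group has a single library and therefore no replicate, so the conditions could not be tested against each other. The 95% intervals given with ratios are exact conditional binomial intervals that cover counting error only, not variation between animals or preparations.

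P450 enzymes are haem proteins of the endoplasmic reticulum that insert oxygen into lipids, steroids and foreign compounds, with electrons passed on by the reductase Por and by cytochrome b5. In the kidney, the Cyp2j and Cyp2c enzymes are known as epoxygenases that turn arachidonic acid into epoxyeicosatrienoic acids, and the Cyp4a enzymes as omega-hydroxylases of arachidonic acid and other fatty acids. Both kinds of product act on vessel tone and on salt transport, and Cyp2e1, Cyp2a and Cyp2d enzymes handle small solvents, drugs and steroids. In the male mouse kidney, several of these genes are known to depend on androgen, and their enzymes are concentrated in the proximal tubule, whose S1, S2 and S3 segments follow each other from the glomerulus.

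After filtering, 3949 cells remained in the I-PpoI library and 3094 in the wild-type library, with 35037164 and 19595441 UMIs and medians of 6647 and 3486.5 UMIs per cell. The median share of mitochondrial UMIs was 3.31% in the I-PpoI library and 14.3% in the wild-type library. The libraries shared 6 barcodes, and 3 of these were retained in both. UMIs of the Y-linked Ddx3y (1946 in the I-PpoI library and 1067 in the wild-type library) and Xist (3 and 1) matched male mice in both. No cluster was podocyte-like, so the targeted cell type was not compared, and I-PpoI itself was not analysed here. Values are counts per 1000000 UMIs of a cell class (CPM). UMIs are counted at the 3′ end of a transcript, so CPM were not divided by length and are compared between cells, not between genes.

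Proximal tubule-like cells, named by markers such as Slc34a1 and Lrp2 and clustered without the P450 members, numbered 467 in the I-PpoI library and 1361 in the wild-type library. Most of its cells belonged to one cluster in the I-PpoI library and to other clusters in the wild-type library. An injured cluster, which expressed the kidney injury marker Havcr1 in the I-PpoI library, held 409 I-PpoI and 18 wild-type cells. The S1 and S2-like clusters held 29 I-PpoI and 617 wild-type cells, the S3-like clusters with the anion transporter Slc22a6 held 18 and 682, and a S3-like cluster with Slc22a13 held 11 and 44. S3-like clusters in which Slc22a13 missed the marker threshold took the name with Slc22a6, which was not itself a condition. The 18 wild-type cells of the injured cluster had 0 Havcr1 UMIs and only 372 CPM of proximal tubule markers against 3733 CPM in the I-PpoI cells there, so no ratio is drawn between the libraries within that cluster. Of the 27 members with at least 50 UMIs, 17 were highest in a proximal tubule-like population and 10 in another cell type.

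**Figure D1:**
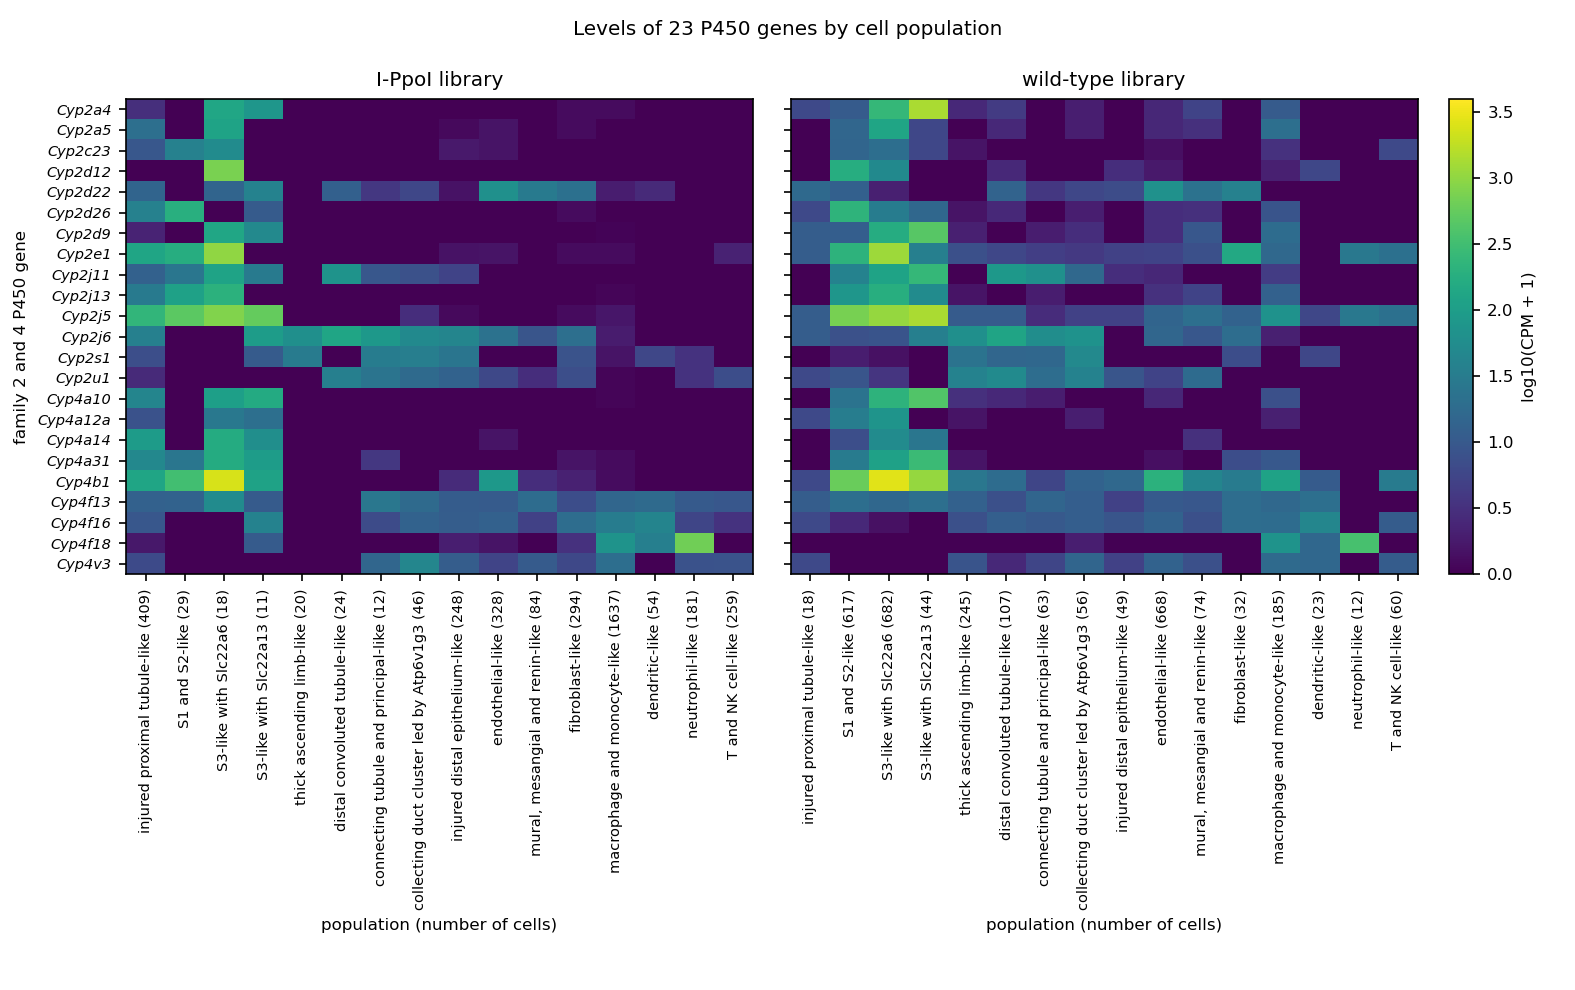
Each row is 1 of the 23 described members and each column a cell population with its number of cells, in the I-PpoI library (left) and the wild-type library (right), coloured by log10(CPM + 1). Most members are high in the proximal tubule-like columns, where the wild-type S3-like cells reach 2732 CPM for Cyp4b1, while Cyp4f18 is high in neutrophil-like and macrophage columns and Cyp2d22 in endothelial-like ones.

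Cyp4b1, which oxidises medium-chain fatty acids and some foreign compounds, Cyp2j5, an arachidonic acid epoxygenase of the kidney, and Cyp2e1, the ethanol-inducible oxidase of small solvents, together held 34.3% of the 9773 member UMIs in the I-PpoI library and 71.8% of the 42797 in the wild-type library. On the GRCm38 (mm10) build with GENCODE release M21, Cyp4b1 lies on the minus strand at chr4:115624725-115647723, Cyp2j5 on the minus strand at chr4:96628773-96664154 and Cyp2e1 on the plus strand at chr7:140763739-140774987. Cyp2j6, a near neighbour of Cyp2j5 that was higher in the I-PpoI library (minus strand, chr4:96516138-96553661), is shown with them. The 250 bases before the RefSeq start of each of these 4 genes (build GRCm38.p6) are printed as examples, 5′ to 3′ in the direction of transcription. They cover chr4:115647722-115647971 (minus) for Cyp4b1, chr4:96664120-96664369 (minus) for Cyp2j5, chr7:140763569-140763818 (plus) for Cyp2e1 and chr4:96553652-96553901 (minus) for Cyp2j6. Capitals mark matches to any of 3 motifs that were searched, GTTAAT (the half-site of the factor HNF1, both strands), AGGTCA (the half-site of many nuclear receptors, both strands) and TATAAA (the TATA box, gene strand only).
Cyp4b1: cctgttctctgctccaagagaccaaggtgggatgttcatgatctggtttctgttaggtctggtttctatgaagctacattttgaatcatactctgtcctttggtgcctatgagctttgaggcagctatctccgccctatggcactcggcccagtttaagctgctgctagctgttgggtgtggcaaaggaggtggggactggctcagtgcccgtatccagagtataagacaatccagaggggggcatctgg
Cyp2j5: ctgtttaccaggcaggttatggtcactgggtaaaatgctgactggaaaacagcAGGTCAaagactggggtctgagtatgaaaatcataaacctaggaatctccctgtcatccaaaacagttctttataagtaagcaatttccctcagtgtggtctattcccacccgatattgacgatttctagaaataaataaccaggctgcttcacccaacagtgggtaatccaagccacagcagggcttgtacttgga
Cyp2e1: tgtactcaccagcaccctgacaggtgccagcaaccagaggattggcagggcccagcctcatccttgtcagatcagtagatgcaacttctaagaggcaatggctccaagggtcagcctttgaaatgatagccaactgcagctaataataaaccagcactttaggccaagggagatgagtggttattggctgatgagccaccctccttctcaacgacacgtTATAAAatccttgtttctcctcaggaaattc
Cyp2j6: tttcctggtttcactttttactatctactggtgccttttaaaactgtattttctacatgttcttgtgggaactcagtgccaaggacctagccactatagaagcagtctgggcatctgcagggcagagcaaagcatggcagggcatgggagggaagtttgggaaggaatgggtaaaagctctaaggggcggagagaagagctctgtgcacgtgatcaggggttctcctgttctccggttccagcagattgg
The Cyp2j5 window holds AGGTCA 197 bases before the start and the Cyp2e1 window TATAAA 31 bases before it, while the Cyp4b1 and Cyp2j6 windows hold none of the 3 motifs. RefSeq windows were matched for 54 of the 69 members. Of the members higher in the I-PpoI library, Cyp4a14 and Cyp2d22 had no matched window and only Cyp2j6 is shown. AGGTCA was found in 10 of these 54 and in 13.8% of the windows of 27025 genes, TATAAA in 12 of 54 and 8.12%, and GTTAAT in 9 of 54 and 6.52%. A match describes letters only and says nothing of binding.

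In wild-type cells, most members were higher in the S3-like cells with Slc22a6 (682 cells) than in the S1 and S2-like cells (617 cells). Of the 20 members with at least 50 UMIs in these populations, 11 were at least 2-fold higher in the S3-like cells, against 6.44% of all 8290 genes, and 4 were at least 2-fold lower, against 8.29%. The median log2 ratio was 1.21 over these members and -0.02 over all genes. The members were not among the genes that defined the clusters. The S3-like cells with Slc22a6 also carried S1 and S2 markers, a list that includes Slc22a6 itself. In wild-type cells these markers summed to 1775 CPM there, against 6119 CPM in S1 and S2-like cells and 217 CPM in S3-like cells with Slc22a13. The S3 markers summed to 3371 CPM, against 420 and 11324 CPM. This population thus lay between the others on both lists, and its S3-like name does not settle its segment.

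Cyp4b1 had 2732 CPM (12397 UMIs) in wild-type S3-like cells with Slc22a6 and 604 CPM (2599 UMIs) in wild-type S1 and S2-like cells, a ratio of 4.52 (4.34 to 4.72). Cyp2e1 had 1175 and 209 CPM in the same populations, a ratio of 5.62 (5.23 to 6.04). Cyp2j5 had 1068 and 725 CPM, a ratio of 1.47 (1.41 to 1.54), so that the epoxygenase was spread more evenly along the tubule than the other 2 genes. Among the 20 members the highest ratio was that of Cyp2a4, a steroid hydroxylase, with 250 CPM in S3-like and 9.76 CPM in S1 and S2-like cells (25.6, 18.8 to 35.7). Cyp2d9, a testosterone hydroxylase of male mice, had 171 and 10.9 CPM (15.6, 11.6 to 21.4). Cyp2a5, a coumarin hydroxylase, had 132 and 14.6 CPM (8.99, 6.92 to 11.8).

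The fatty acid omega-hydroxylases of the Cyp4a group were also higher in the S3-like cells. Cyp4a10 had 210.5 CPM in S3-like and 22.8 CPM in S1 and S2-like wild-type cells (9.24), Cyp4a14 had 52.9 and 6.28 CPM (8.43), Cyp4a31 had 115.5 and 30.2 CPM (3.82) and Cyp4a12a had 73.2 and 32.8 CPM (2.23). Of the remaining Cyp2j members, Cyp2j11 had 120 and 38.3 CPM (3.12) and Cyp2j13 had 182 and 76.0 CPM (2.40). Members of the Cyp2d group ran in both directions within 1 gene cluster of chromosome 15. Against Cyp2d9, the neighbours Cyp2d26 (31.5 CPM in S3-like and 220 CPM in S1 and S2-like cells, 0.143, 0.119 to 0.171), Cyp2d12 (50.7 and 176 CPM, 0.288) and Cyp2d22 (1.10 and 11.9 CPM, 0.0930, 0.0290 to 0.231) were lower in the S3-like cells. The gap between the gene bodies is 98.2 kb for Cyp2d9 and Cyp2d12, and 229.7 kb for Cyp2d12 and Cyp2d26. The fourth member lower in S3-like cells was Cyp2j9, with 3.53 CPM there and 10.2 CPM in S1 and S2-like cells (0.345).

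The 44 wild-type S3-like cells with Slc22a13 differed again from the 682 with Slc22a6. Of 17 members with at least 50 UMIs, 4 were at least 2-fold higher in the cells with Slc22a13, against 8.34% of 6415 genes, and 10 were at least 2-fold lower, against 15.8%. The 44 cells held only 202670 UMIs, and the interval lay below 1 for 6 members and above 1 for 6. The division of S3-like cells by Slc22a13 was chosen after the data were seen. Cyp2a4 had 1386 CPM (281 UMIs) in the cells with Slc22a13 and 250 CPM in those with Slc22a6 (5.55, 4.85 to 6.33). Cyp2d9 had 459 and 171 CPM (2.69, 2.15 to 3.34), Cyp4a31 had 286 and 115.5 CPM (2.48) and Cyp2j11 had 247 and 120 CPM (2.06). Cyp2e1 showed the reverse order, with 34.5 CPM (7 UMIs) in the cells with Slc22a13 and 1175 CPM in those with Slc22a6 (0.0294, 0.0118 to 0.0606). Cyp2a5, a close relative of Cyp2a4, had 1 UMI and 597 UMIs (0.0375), and Cyp4b1 had 1056 and 2732 CPM (0.386, 0.336 to 0.442). Cyp4a12a had 0 UMIs in the cells with Slc22a13 and 332 UMIs in those with Slc22a6, which is at least 4.94-fold lower against a floor of 3 UMIs in that population.

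**Figure D2:**
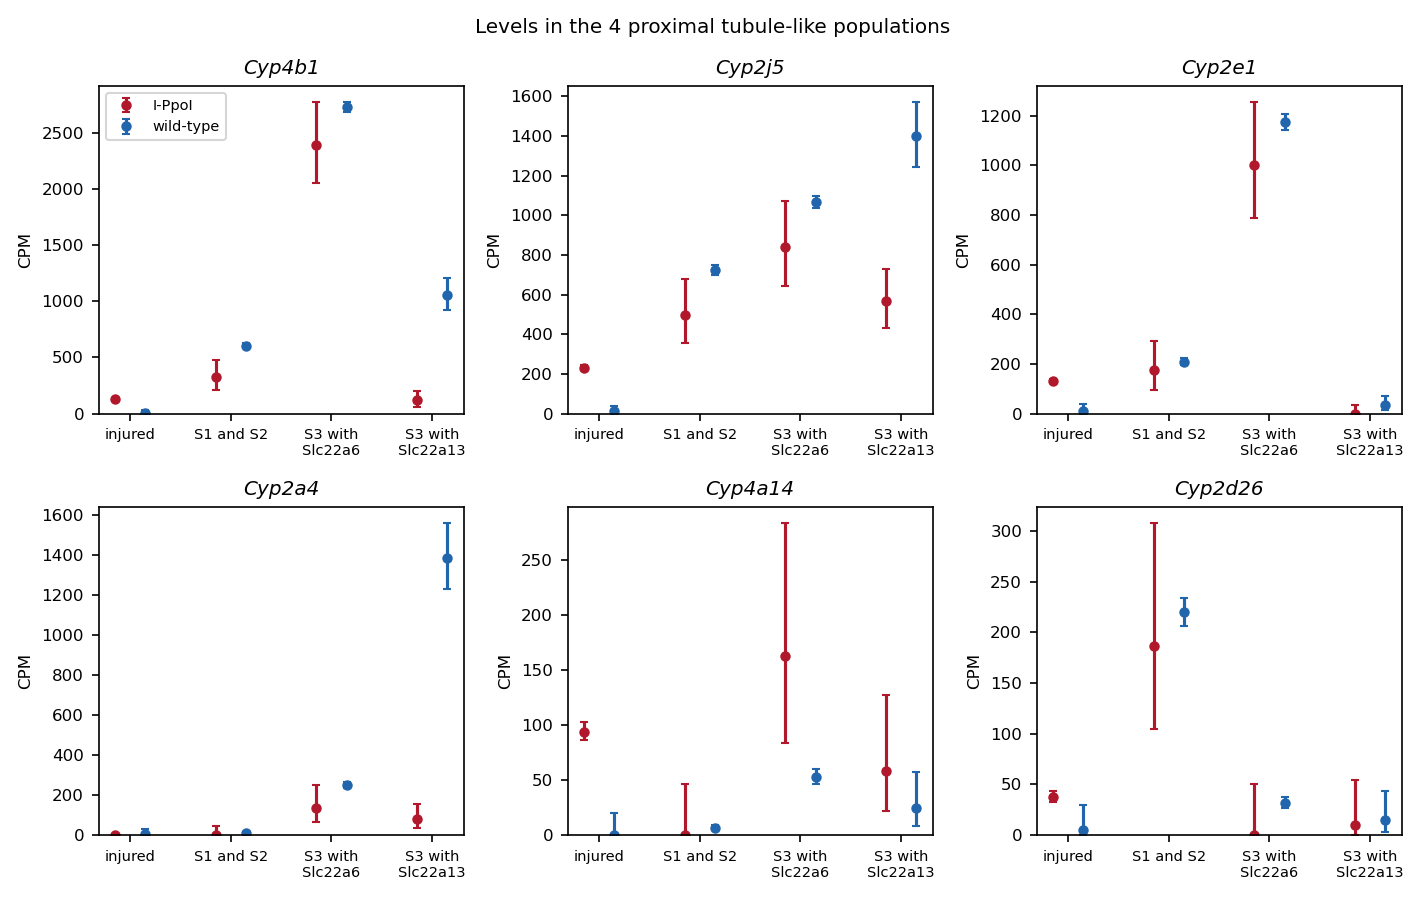
Panels show CPM of single members in each proximal tubule-like population, with I-PpoI points left of wild-type points and bars for the exact 95% Poisson interval of the UMI sum (counting error only). Cyp2a4 peaks at 1386 CPM in wild-type S3-like cells with Slc22a13, and Cyp2d26 is higher in wild-type S1 and S2-like cells (220 CPM) than in S3-like cells with Slc22a6 (31.5 CPM).

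Across the whole proximal tubule-like class, both families were lower in the I-PpoI library. The Cyp2 members summed to 590 CPM (3371 UMIs) in I-PpoI cells and 2382 CPM (21987 UMIs) in wild-type cells, a ratio of 0.248 (0.239 to 0.257). The Cyp4 members summed to 399 CPM (2282 UMIs) in I-PpoI cells and 1961 CPM (18103 UMIs) in wild-type cells, a ratio of 0.204 (0.195 to 0.213). Of the 22 members whose proximal tubule-like cells held 50 or more UMIs, 13 were at least 2-fold lower in I-PpoI cells, against 6.55% of all 10256 genes, and 4 were at least 2-fold higher, against 23.9%. The median log2 ratio was -1.62 over these members and 0.40 over all genes. The class also differed in other measures that move with the libraries: the 10 general proximal tubule markers, none of them a P450 gene, summed to 4050 CPM in I-PpoI cells and 15968 CPM in wild-type cells, a drop of much the same size as that of the P450 sums. Mitochondrial UMIs were 9.48% of the total in I-PpoI cells and 24.7% in wild-type cells, and the injury-associated Spp1 alone took 4.67% and 0.0420%. Ratios under other scalings stand in the closing section.

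Cyp4b1 had 163 CPM (934 UMIs) in I-PpoI proximal tubule-like cells and 1648 CPM (15211 UMIs) in wild-type cells, a ratio of 0.0992 (0.0928 to 0.106). Among the epoxygenases, Cyp2j5 had 248 CPM (1417 UMIs) in I-PpoI cells and 894 CPM (8254 UMIs) in wild-type cells (0.277, 0.262 to 0.293). Cyp2j11 had 14.2 and 82.1 CPM (0.173, 0.136 to 0.217) and Cyp2j13 had 31.2 and 126 CPM (0.247, 0.209 to 0.289). Cyp2c23, an epoxygenase of the rodent kidney, was closer in the 2 libraries with 9.28 CPM in I-PpoI and 15.7 CPM in wild-type cells (0.591, 0.423 to 0.814). Cyp2e1 had 140 CPM (801 UMIs) in I-PpoI cells and 676 CPM (6241 UMIs) in wild-type cells (0.207, 0.192 to 0.223).

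The 2 lowest of these 22 ratios belonged to steroid-handling members. Cyp2a4 had 29 UMIs (5.08 CPM) in I-PpoI cells and 1458 UMIs (158 CPM) in wild-type cells, a ratio of 0.0321 (0.0214 to 0.0464). Cyp2d9 had 22 UMIs (3.85 CPM) in I-PpoI cells and 916 UMIs (99.2 CPM) in wild-type cells, a ratio of 0.0388 (0.0242 to 0.0591). Cyp2d12 had 55 and 988 UMIs (0.0899), Cyp2d26 had 221 and 1093 UMIs (0.327, 0.281 to 0.378) and Cyp2a5 had 115 and 661 UMIs (0.281, 0.229 to 0.343). Cyp2u1, a fatty acid hydroxylase, had 9 and 47 UMIs (0.309, 0.133 to 0.639).

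The omega-hydroxylase group did not move as a block. Cyp4a12a, the androgen-dependent arachidonic acid hydroxylase of the male mouse, had 7.35 CPM in I-PpoI cells and 51.4 CPM in wild-type cells (0.143, 0.102 to 0.196), and Cyp4a10 had 44.1 and 123 CPM (0.358, 0.311 to 0.411). Cyp4a31 had 48.5 and 77.1 CPM (0.629, 0.545 to 0.723). Cyp4a14 ran the other way, with 92.9 CPM (531 UMIs) in I-PpoI cells and 29.5 CPM (272 UMIs) in wild-type cells (3.15, 2.72 to 3.66), although its gene body (chr4:115486200-115496142) lies 22.1 kb from that of Cyp4a10. The summed Cyp4a genes had 205 CPM in I-PpoI cells and 293 CPM in wild-type cells, a ratio of 0.701 (0.654 to 0.751).

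The other 3 members that were at least 2-fold higher were Cyp2j6, Cyp4f16 and Cyp2d22. Cyp2j6, a Cyp2j enzyme of broad expression, had 36.1 CPM (206 UMIs) in I-PpoI cells and 7.91 CPM (73 UMIs) in wild-type cells, a ratio of 4.56 (3.47 to 6.04), and its gene body lies 75.1 kb from that of Cyp2j5. Cyp4f16, of the Cyp4f group that oxidises leukotrienes and other fatty acids, had 51 and 10 UMIs (8.24, 4.14 to 18.2). Cyp2d22 had 79 and 59 UMIs (13.8 and 6.39 CPM, 2.16, 1.52 to 3.08), and its gene body lies 53.2 kb from that of Cyp2d9. With median-of-ratios scaling Cyp2d22 fell under 2-fold (1.64), while Cyp4a31 (0.476) and Cyp2c23 passed it on the lower side. The counts then became 15 lower and 3 higher. Cyp4f16 is also found in macrophage-like cells, whose 8 markers summed to 92.4 CPM in I-PpoI proximal tubule-like cells (8 of 8 detected) and 7.80 CPM in wild-type cells (6 of 8 detected), and to 18240 and 18502 CPM in macrophage-like cells. The part of macrophage RNA in the Cyp4f16 ratio was not tested. Cyp4f13 had 12.8 and 16.9 CPM (0.756, 0.565 to 1.00), so that its interval reached 1.

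**Figure D3:**
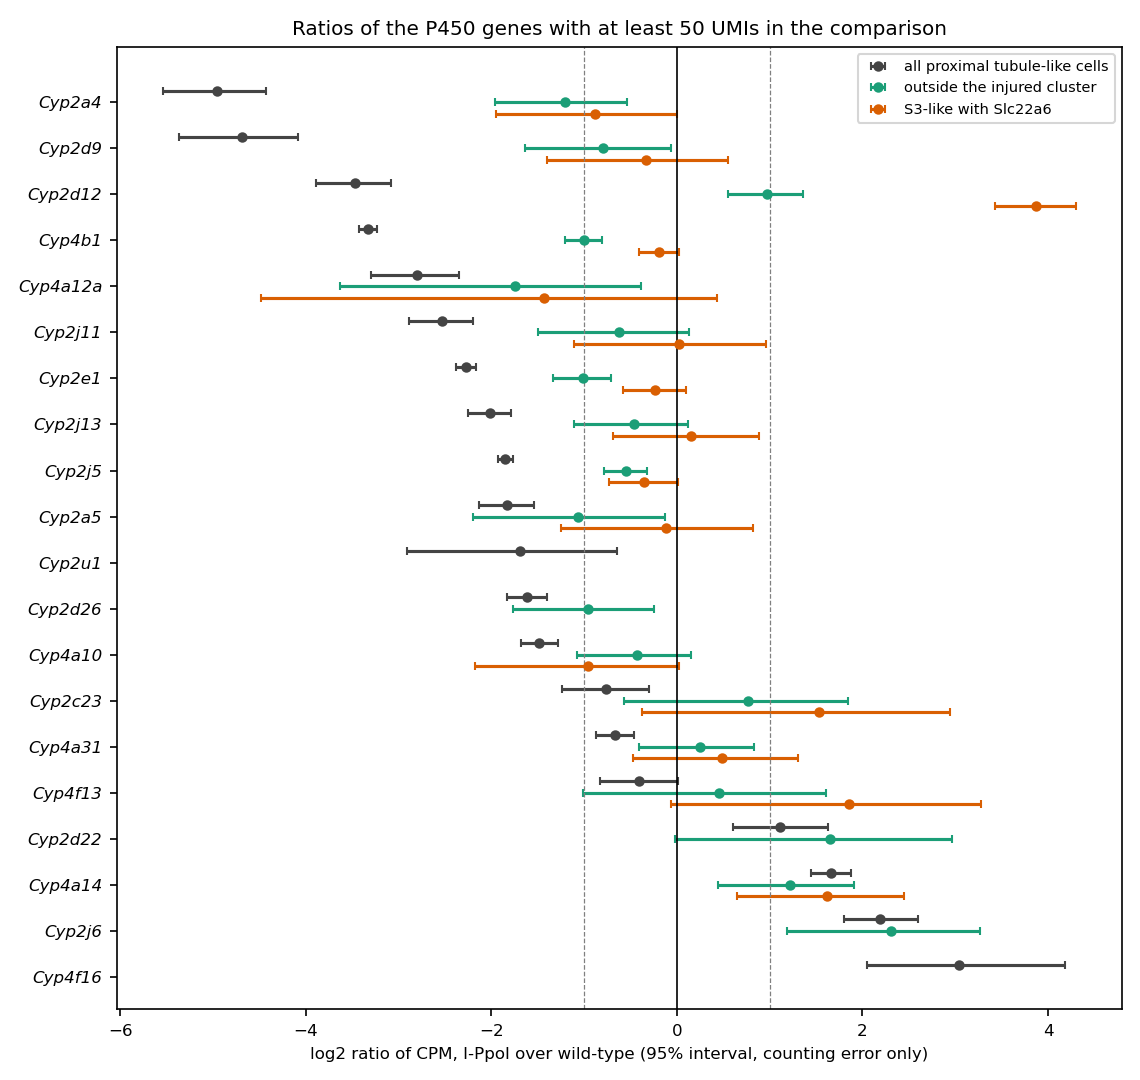
Points are the log2 ratio of CPM in I-PpoI over wild-type cells for each described member with at least 50 UMIs in a comparison, over all proximal tubule-like cells (grey), those outside the injured cluster (green) and S3-like cells with Slc22a6 (orange), with exact 95% intervals (counting error only), a solid line at no difference and dashed lines at 2-fold. Over all cells 13 members lie below the lower dashed line and 4 above the upper one, and Cyp4b1 moves closer to no difference with a ratio of 0.0992 over all cells, 0.498 outside the injured cluster and 0.876 in the S3-like cells.

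The injured cluster held most of the I-PpoI proximal tubule-like cells, and its cells had less of most members than the other I-PpoI cells of the class. Within the I-PpoI library, Cyp2 members summed to 540 CPM in the 409 injured cells and 1647 CPM in the 58 other cells, a ratio of 0.328 (0.296 to 0.364), and Cyp4 members to 364 and 1160 CPM (0.313, 0.277 to 0.355). Of 17 members with at least 50 UMIs, 9 were at least 2-fold lower in the injured cells, against 5.72% of 8581 genes, and 0 were higher, against 26.2%. Cyp4b1 had 132 CPM in injured and 837 CPM in other I-PpoI cells (0.157, 0.135 to 0.184), Cyp2j5 had 230 and 623 CPM (0.370, 0.313 to 0.439) and Cyp2e1 had 131 and 343 CPM (0.381, 0.305 to 0.482). For Cyp4a14 and Cyp2j6, which were higher over the whole class, the intervals of this ratio included 1. Cyp4a14 had 94.0 CPM in injured and 70.1 CPM in other I-PpoI cells (1.34, 0.840 to 2.28), and Cyp2j6 had 35.9 and 38.9 CPM (0.923, 0.491 to 1.95). The Cyp2j6 value of the other cells rests on 10 UMIs, all in the 11 S3-like cells with Slc22a13. The general proximal tubule markers were lower as well, with 3733 CPM in injured and 10784 CPM in other I-PpoI cells, and the 58 other cells are few. The S3 markers summed to 606 CPM in injured and 3936 CPM in other I-PpoI cells, and the S1 and S2 markers to 908 and 1639 CPM. The segment from which the injured cells came is not known, so injury and segment cannot be told apart in these ratios.

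Within the injured I-PpoI cells the molecules were spread unevenly. Cyp2j5 was found in 220 of the 409 cells (1257 UMIs), Cyp4b1 in 163 (719 UMIs), Cyp2j6 in 121 (196 UMIs) and Cyp2e1 in 120 (713 UMIs). Cyp4a14 was found in only 61 cells with 513 UMIs, of which 95.9% lay in the 41 cells with the most, up to 42 in 1 cell. When each cell was thinned to 1000 UMIs, Cyp4b1 was seen in 9.17% of 360 injured I-PpoI cells (6.39% to 12.6%, exact binomial interval), 30.6% of 490 wild-type S1 and S2-like cells and 83.1% of 567 wild-type S3-like cells with Slc22a6. Free RNA in droplets sets a floor for such shares: in T and NK-like cells, which should lack Cyp4b1, a UMI remained after thinning in none of 253 I-PpoI cells (0%, exact upper limit 1.45%), against 1.72% of 58 wild-type cells. Unthinned, it was 0 of 259 I-PpoI cells (median 2877 UMIs) and 10.0% of 60 wild-type cells (median 3012 UMIs).

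Outside the injured cluster, the ratios of the sums lay closer to 1. The 58 I-PpoI cells had 1647 CPM of Cyp2 members and the 1343 wild-type cells had 2429 CPM, a ratio of 0.678 (0.614 to 0.746), and Cyp4 members had 1160 and 2001 CPM (0.580, 0.515 to 0.650). Of 20 members, 5 were at least 2-fold lower in I-PpoI cells, against 12% of 8436 genes, and 3 were at least 2-fold higher, against 8.69%. Cyp4b1 had 837 CPM in I-PpoI and 1682 CPM in wild-type cells (0.498, 0.433 to 0.569), Cyp2e1 had 343 and 690 CPM (0.497) and Cyp2j5 had 623 and 913 CPM (0.683, 0.580 to 0.798). Cyp4a14 had 70.1 CPM (18 UMIs) in I-PpoI cells and 30.1 CPM in wild-type cells (2.33, 1.36 to 3.75), and Cyp2j6 had 10 and 71 UMIs (38.9 and 7.85 CPM, 4.96, 2.28 to 9.66). All 10 I-PpoI Cyp2j6 UMIs lay in the 11 S3-like cells with Slc22a13, of which 54.5% carried Havcr1. The S1 and S2-like cells and the S3-like cells with Slc22a6 of that library had 0. The pools differ in make-up, since the S3-like cells with Slc22a13 gave 102595 of the 256853 UMIs in the I-PpoI library and 202670 of the 9042680 UMIs in the wild-type library. The general proximal tubule markers also differed, with 10784 CPM in I-PpoI and 16292 CPM in wild-type cells.

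Segment by segment, the intervals of the summed ratios included 1 in some populations and not in others. The general proximal tubule markers summed to 18001 CPM in I-PpoI and 17014.5 CPM in wild-type S3-like cells with Slc22a6. They summed to 11890 and 15694 CPM in S1 and S2-like cells and to 4718 and 12829 CPM in S3-like cells with Slc22a13. Both libraries were clustered together, so I-PpoI cells entered these populations by their likeness to the other cells there. In S3-like cells with Slc22a6, Cyp2 members had 3368 CPM in 18 I-PpoI cells and 3218 CPM in 682 wild-type cells, a ratio of 1.05 (0.920 to 1.19), and Cyp4 members had 2935 and 3215 CPM (0.913, 0.795 to 1.04). There Cyp4b1 had 2394 and 2732 CPM (0.876, 0.751 to 1.02), Cyp2e1 had 1001 and 1175 CPM (0.852, 0.668 to 1.07) and Cyp2j5 had 839 and 1068 CPM (0.785, 0.601 to 1.01), all with intervals that reach 1. Of 17 members, 2 were at least 2-fold lower in I-PpoI cells, against 21.4% of 6289 genes, and 5 at least 2-fold higher, against 10.9%. The lower ones were Cyp2d26 (0 and 143 UMIs) and Cyp4a12a (2 and 332 UMIs), both with intervals that include 1, and the higher ones Cyp2d12, Cyp4a14, Cyp4f13, Cyp2c23 and Cyp4a12b. Of these, only Cyp2d12 and Cyp4a14 (12 and 240 UMIs, 3.07, 1.56 to 5.46) had intervals above 1, and the 55 Cyp2d12 UMIs came from 2 of the 18 I-PpoI cells. Cyp2a4 (10 and 1134 UMIs) was not 2-fold lower but was the only member with an interval below 1. In S1 and S2-like cells, Cyp2 members had 1033 CPM in 29 I-PpoI cells and 1541 CPM in 617 wild-type cells (0.671, 0.534 to 0.833), and Cyp4 members had 361 and 731 CPM (0.494, 0.330 to 0.711). Cyp4b1 had 324 and 604 CPM there (0.536, 0.349 to 0.787). Of 14 members, 5 were at least 2-fold lower in I-PpoI cells, against 28.2% of 6490 genes, and 1 was at least 2-fold higher, against 7.49%. These 5 (Cyp2d12, Cyp4a12a, Cyp4a10, Cyp2a5 and Cyp2d22) had 0 UMIs in the I-PpoI cells, which held only 80317 UMIs, and of them Cyp2d12 alone had an interval below 1 (0 and 758 UMIs).

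The S3-like cells with Slc22a13 differed more. Cyp2 members had 887 CPM in 11 I-PpoI cells and 3646 CPM in 44 wild-type cells (0.243, 0.193 to 0.303), and all 7 members with at least 50 UMIs were at least 2-fold lower in I-PpoI cells, against 15.3% of 773 genes, and 0 were higher, against 17.6%. The limit of 50 UMIs sums both libraries, with 102595 I-PpoI and 202670 wild-type UMIs here, so members low in wild-type cells could miss it. Among the members under it, Cyp2j6 had 10 I-PpoI and 7 wild-type UMIs, while Cyp2e1 had 0 and 7. Cyp2a4 had 8 UMIs (78.0 CPM) in I-PpoI cells and 281 UMIs (1386 CPM) in wild-type cells, a ratio of 0.0562 (0.0240 to 0.112). Cyp4b1 had 117 CPM in I-PpoI and 1056 CPM in wild-type cells (0.111, 0.0563 to 0.198), and Cyp2j5 had 565 and 1401 CPM (0.403, 0.299 to 0.537). These 11 I-PpoI cells also carried Havcr1 at 487 CPM (50 UMIs), against 0 UMIs in wild-type cells, and had 244 CPM of the S3 gene Slc7a13 against 1890 CPM. In cluster 12, the only proximal tubule cluster with at least 20 cells of each library (27 I-PpoI and 446 wild-type), Cyp2 members had 901 and 1050 CPM (0.858, 0.592 to 1.20) and Cyp4 members 556 and 368 CPM (1.51, 0.927 to 2.33), on 21 and 555 UMIs. The Cyp4 direction turned at Leiden resolution 0.5, where the log2 ratio was -0.83 in place of 0.59, and without removal of doublets it was 0.29. Of 6 members there, 1 was at least 2-fold lower, against 26.8% of 2858 genes, and 1 higher, against 6.12%.

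Cyp2d12 molecules lay in few cells. In the I-PpoI library 0 of 5456350 UMIs of the injured cells came from Cyp2d12, and all 55 of its proximal tubule-like UMIs came from 2 of the 18 S3-like cells with Slc22a6, which held 38 and 17. In the wild-type library the 988 UMIs came mostly from S1 and S2-like cells, where 758 UMIs lay in 109 of 617 cells, while the neighbouring Cyp2d26 had 946 UMIs in 280 of the same cells. Among the 156 wild-type S1 and S2-like cells with at least 10000 UMIs, 97 (62.2%) had 0 Cyp2d12 UMIs and 44 had at least 5, up to 47, and these 44 held 607 of the 645 UMIs. Depth was similar in the 2 kinds of cell, with a median total of 18796.5 UMIs where Cyp2d12 reached 5 and 17068 where it was 0. Cyp2e1, with a like total of 666 UMIs in these 156 cells, was also uneven, with 53 cells (34.0%) at 0 and 47 cells with at least 5 UMIs that held 550. Cyp2d26 was 0 in 14 of the 156 cells (8.97%), Cyp4b1 in 12 (7.69%) and Cyp2j5 in 0. The last 500 bases of Cyp2d12 share 18.8% of their 50-base words with other members, so some of its reads cannot be told from those of related Cyp2d genes.

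**Figure D4:**
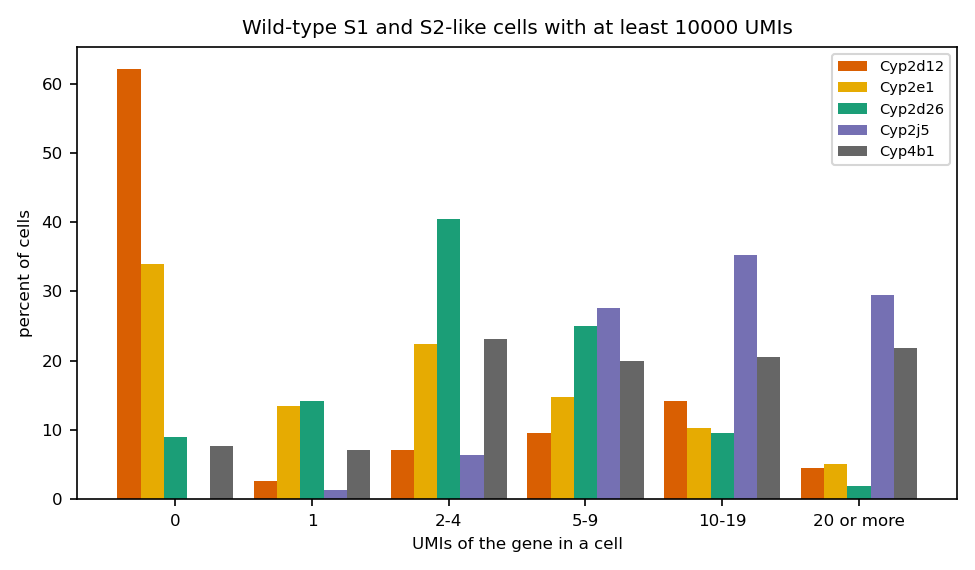
Bars give the percent of the 156 wild-type S1 and S2-like cells with at least 10000 UMIs that fall in each range of UMIs of Cyp2d12, Cyp2e1, Cyp2d26, Cyp2j5 or Cyp4b1 per cell. Cyp2d12 is split between 97 cells at 0 and 44 cells with at least 5 UMIs, while Cyp2e1 is at 0 in 53 cells, Cyp2d26 in 14 and Cyp2j5 in none.

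Outside the proximal tubule, the members belonged to other cell types. Cyp4f18, which oxidises the main leukotriene of neutrophils in mice (chr8:71988482-72009626, minus strand), was highest in neutrophil-like cells, with 665 CPM (285 UMIs in 181 cells) in the I-PpoI library and 350 CPM (13 UMIs in 12 cells) in the wild-type library, a ratio of 1.90 (1.09 to 3.61). It was the only member with at least 50 UMIs in that class, in which 38.9% of 1195 genes were at least 2-fold higher and 9.12% at least 2-fold lower in I-PpoI cells. In macrophage-like cells it had 68.8 CPM (1027 UMIs) in the I-PpoI library and 70.7 CPM (64 UMIs) in the wild-type library (0.973, 0.755 to 1.27), and in proximal tubule-like cells 5 and 0 UMIs. Of 6 members with 50 or more UMIs in macrophage-like cells, 2 (Cyp4b1 and Cyp2j5) were at least 2-fold lower in I-PpoI cells, against 7.92% of 9639 genes, and 0 were higher, against 10%. Of the 107 Cyp4b1 UMIs in wild-type macrophage-like cells 74 lay in 1 cell, and the proximal tubule markers summed to 25.5 CPM in I-PpoI and 995 CPM in wild-type macrophage-like cells. The class includes cluster 19 (55 I-PpoI and 9 wild-type cells). Beside 8 macrophage markers, cluster 19 passed 5 proximal tubule, 3 thick ascending limb and 5 injured distal epithelium markers. The part of tubule RNA in these 2 ratios was not tested. Cyp4f16 had 31.7 CPM (473 UMIs) in I-PpoI macrophage-like cells and 17.7 CPM (16 UMIs) in wild-type ones (1.79, 1.09 to 3.16), and 41.1 and 44.3 CPM in dendritic-like cells.

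Endothelial-like cells (328 in the I-PpoI library and 668 in the wild-type library) held Cyp2d22 and Cyp4b1. Cyp2d22 had 62.6 CPM in I-PpoI and 65.1 CPM in wild-type cells, a ratio of 0.962 (0.751 to 1.23), in 78 and 135 cells. Cyp4b1 had 81.5 CPM (147 UMIs in 71 cells) in I-PpoI and 204 CPM (529 UMIs in 272 cells) in wild-type endothelial-like cells, a ratio of 0.400 (0.331 to 0.481). Of 4 members with 50 or more UMIs here, it alone was at least 2-fold lower in I-PpoI cells, against 4.8% of 7964 genes, and 0 were higher, against 4.76%. Cyp2j5 had 0 UMIs in I-PpoI and 35 UMIs in wild-type endothelial-like cells. The general proximal tubule markers summed to 12.2 CPM in I-PpoI and 203 CPM in wild-type endothelial-like cells, and their part in the Cyp4b1 ratio was not tested. The clusters of the class differed in size between the libraries, and the Cyp4b1 ratio varied between them. In cluster 3 (60 I-PpoI and 430 wild-type cells) there were 18 and 361 UMIs (0.203, 0.119 to 0.326) and in cluster 22 (19 and 9 cells) 22 and 16 UMIs (0.411, 0.206 to 0.838). In cluster 14 (247 and 89 cells), which held most of the I-PpoI cells, there were 107 and 14 UMIs with an interval that includes 1 (0.691, 0.394 to 1.31), and cluster 25 had 2 I-PpoI cells, too few for a ratio. Cluster 13, led by Tm4sf1 and Aqp1 (61 and 68 cells), passed 8 endothelial markers but stayed unnamed and lies outside this class. It had 22.8 CPM of Cyp4b1 in I-PpoI and 39.8 CPM in wild-type cells, and 39.8 and 30.8 CPM of Cyp2d22.

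Along the distal nephron, the intervals of the Cyp2j6 ratio included 1. Distal convoluted tubule-like cells had 129 CPM in the I-PpoI library and 124 CPM in the wild-type library (1.04, 0.498 to 1.97), thick ascending limb-like cells 61.7 CPM (2 UMIs) and 61.9 CPM (114 UMIs), and the distal tubule and collecting duct-like class as a whole 62.5 and 76.0 CPM (0.821, 0.635 to 1.06). Cyp2s1, an enzyme of epithelia, had 34.2 CPM in I-PpoI and 49.0 CPM in wild-type cells of the cluster led by the proton pump gene Atp6v1g3 (0.697, 0.439 to 1.10). Of 6 members with at least 50 UMIs in the distal class, 1 was at least 2-fold lower, against 3.88% of 7766 genes, and 1 higher, against 7.57%. The lower one was Cyp2j11, with 11.0 CPM in I-PpoI and 49.5 CPM in wild-type cells (0.222, 0.123 to 0.374). The proximal tubule markers summed there to 9.61 and 89.3 CPM, and their part in this ratio was not tested. Cyp2u1 had 19.2 and 33.6 CPM (0.572, 0.361 to 0.882). The cells with the injured distal epithelium markers Lcn2 and Krt19 held 171 Cyp2j6 UMIs (42.6 CPM) and 97 Cyp2s1 UMIs (24.2 CPM) in 248 I-PpoI cells, and 0 UMIs of either in the 49 wild-type cells of that cluster. Those 49 wild-type cells had 13903 CPM of thin limb markers against 595 CPM in the I-PpoI cells, and 206 CPM of injured distal markers against 11498 CPM, so no ratio is drawn.

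Cyp4v3, a fatty acid hydroxylase, was the higher member of the distal class, with 50 UMIs in I-PpoI and 20 UMIs in wild-type cells (4.65, 2.72 to 8.24). Cells of the cluster led by Atp6v1g3 had 44.0 CPM in the I-PpoI library and 13.7 CPM in the wild-type library (3.20). In macrophage-like cells Cyp4v3 had 19.3 CPM (288 UMIs) and 16.6 CPM (15 UMIs), a ratio of 1.16, and in endothelial-like cells 4.43 CPM (8 UMIs) and 12.7 CPM (33 UMIs), a ratio of 0.349 (0.139 to 0.770).

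**Figure D5:**
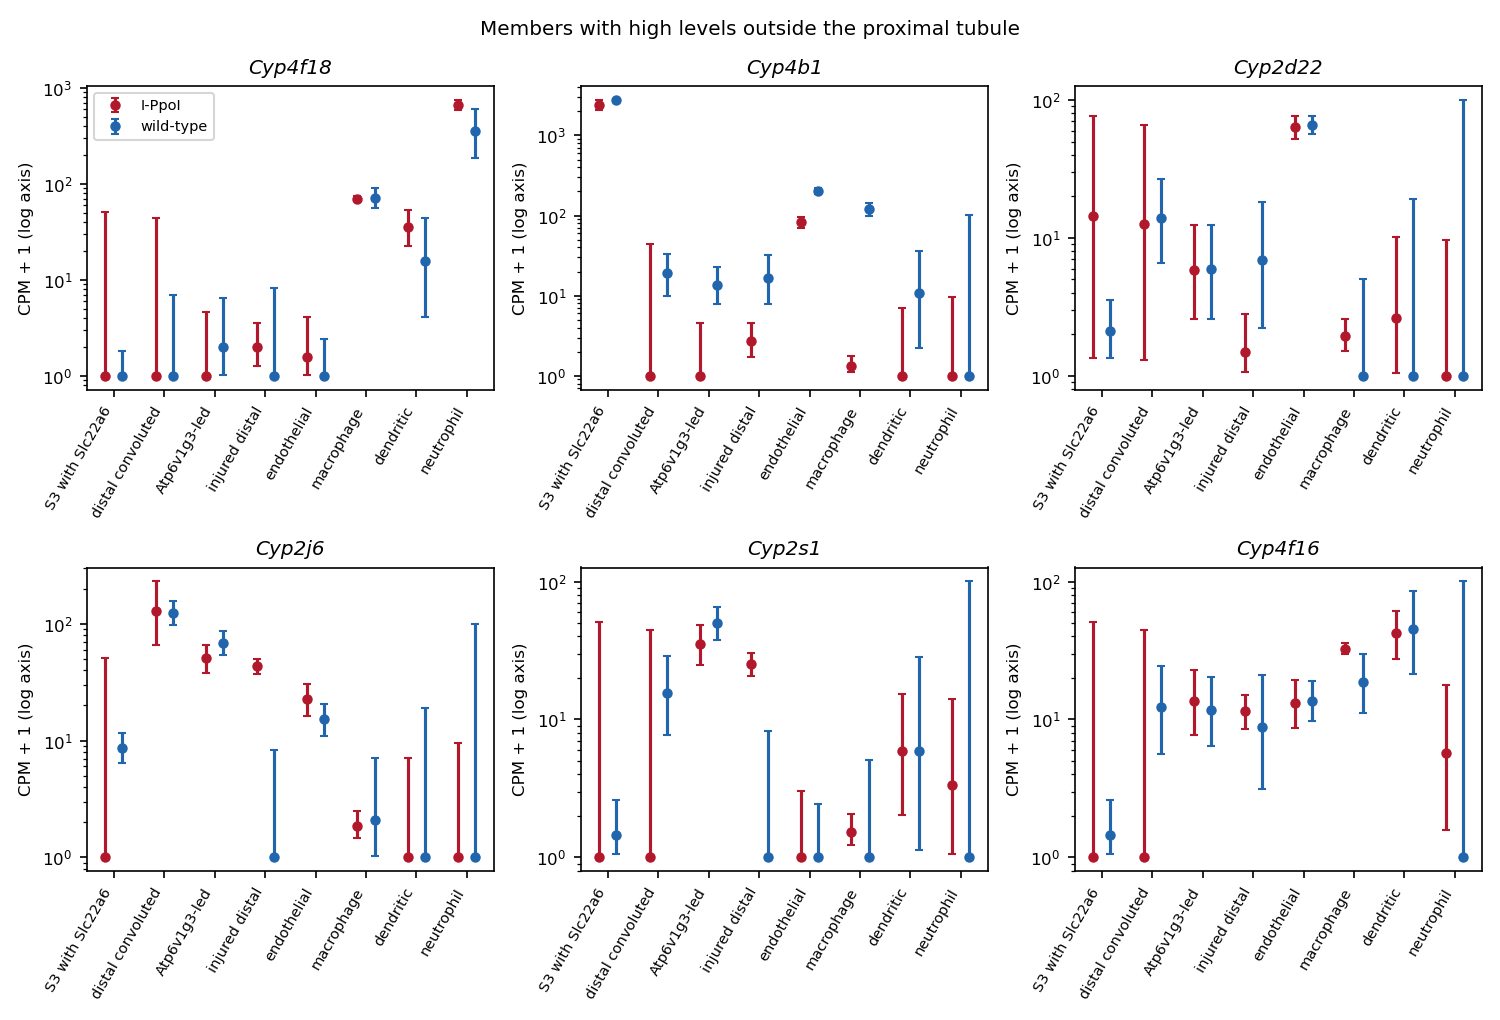
Panels give CPM + 1 on a log axis for 6 members in the I-PpoI (red, left) and wild-type (blue, right) cells of each population, with exact 95% Poisson intervals (counting error only). Cyp4f18 reaches 665 CPM in I-PpoI neutrophil-like cells and 350 CPM in wild-type ones, and Cyp4b1 in endothelial-like cells stands at 81.5 and 204 CPM.

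Genes that work with these enzymes were counted in the proximal tubule-like class by the same 2-fold rule, beside all genes, of which 6.55% were lower and 23.9% higher with a median log2 ratio of 0.40. Of 9 electron donors and partners, 2 were lower in I-PpoI cells (Cyb5a and Cyb5b, the cytochromes b5) and 1 was higher (Cyb5r3, their reductase), with a median of -0.06. Of 20 targets of the fatty acid receptor PPAR alpha, which is known to induce Cyp4a genes, 3 were lower (Ehhadh, Acaa1b and Acadm) and 6 higher (Pdk4, Acot1, Acot2, Plin2, Angptl4 and Fabp1), with a median of 0.26. Of 6 epoxide and eicosanoid enzymes with at least 50 UMIs out of 14 listed, 2 were lower (Ephx2, the soluble epoxide hydrolase, and Tbxas1) and 1 higher (Ephx1, the microsomal one). Of 11 nuclear receptors and liver-type factors out of 15, 1 was lower (Ppard) and 2 higher (Ahr and Bcl6). Of 17 drug-handling genes out of 20, 3 were lower (Ugt2b38, Ugt3a1 and Ugt3a2) and 3 higher (Gsta2, Gsta4 and Abcc4). Of 9 androgen-responsive tubule genes, 7 were lower and 0 higher with a median of -4.33, among them Kap at 1428 CPM in I-PpoI and 26804 CPM in wild-type cells. Outside the injured cluster 2 of these 9 were lower, against 12% of all genes, and 0 higher, with a median of -0.76. In S3-like cells with Slc22a6 1 was lower, against 21.4%, and 0 higher, with a median of -0.10. Slc7a13, Slc22a30 and Acsm3 of this list are also S3 markers used to name the S3-like clusters. Kap was first among the leading genes of the S3-like clusters with Slc22a6. The values in these cells are therefore not independent of how the cells were chosen. Of 7 female-biased genes, 3 were lower (Slc22a7, Slc22a19 and Acsm1) and 2 higher (Slc7a12 and Prlr). Of 7 other P450 genes out of 15, 3 were lower (Cyp7b1, Cyp27a1 and Cyp51) and 4 higher (Cyp1b1, Cyp20a1, Cyp24a1 and Cyp27b1).

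The pattern over 25 population-by-library sums with at least 30 cells was compared with that of every other gene, by Pearson correlation of log2(CPM + 10), as a description without a test, since the points share libraries and depth. Nearest to Cyp4b1 were Fmo1 (0.927), Acsm2 (0.924) and Kap (0.919). Nearest to Cyp2j5 were Keg1 (0.991), Lrp2 (0.988) and Akr1c21 (0.982), and nearest to Cyp2e1 were Nat8f2 (0.929), Ttr (0.918) and Slco1a6 (0.915).

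Close relatives could share reads at the counted 3′ end. Over the last 500 bases, 37.0% of the 50-base words of Cyp2a4 were shared with Cyp2a5, and 37.0% of those of Cyp4a12a with Cyp4a12b, so the counts of these pairs are uncertain. Cyp2d26 shared 25.7% and Cyp2d9 22.6% with other members, and Cyp4a10 and Cyp4a31 shared 5.99%. Cyp4b1, Cyp2j5, Cyp2j6, Cyp4a14, Cyp4f18 and Cyp2d22 shared 0%.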

How the data were processed

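Kidney cortex cells of 1 I-PpoI and 1 wild-type library were profiled by 3′ droplet sequencing (kit version 3.1). The deposited values are whole-number UMI counts per gene and barcode that the authors made with Cell Ranger on an mm10 package, per the labels, which name version 3.1, while the file headers name 6.0.2. Each barcode held at least 500 UMIs. Cells with at least 200 genes and at most 50% mitochondrial UMIs were kept (I-PpoI 4091 of 5268 barcodes, wild-type 3217 of 5536). Scrublet, as run in scanpy 1.11.5, marked 30 (0.733%) and 5 (0.155%) barcodes on its own, and in both libraries the 4% of barcodes with the highest scores were removed instead (142 and 123), since the second share was under 0.5%. Free RNA was not removed.

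Counts scaled to 10000 per cell and logged gave 2000 variable genes (without the P450 members), 30 components, 15 neighbours and Leiden clusters at resolution 1 for both libraries together. The 30 clusters were named from 24 marker lists, where a name needed 3 markers at 25 CPM and 4-fold over the median cluster, and 2 stayed unnamed, so classes are rebuilt here. Marker lists, members and gene lists were chosen with earlier results of these data known. UMIs were summed per library and class. Intervals of 95% came from scipy 1.17.1 and were tested on simulated data. Members with at least 200 UMIs are described by name, and those with at least 50 UMIs in a class enter its 2-fold counts. Gene coordinates are from GENCODE M21 and promoter windows from RefSeq.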

Additional observations from a re-analysis of the deposited data

Results flagged for a closer look

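Cyp4v3 differed in direction between cell classes: its log2 ratio of CPM in I-PpoI over wild-type cells was 5.60 in proximal tubule-like cells (30 and 1 UMIs), 2.22 in distal tubule and collecting duct-like cells (50 and 20 UMIs) and -1.52 in endothelial-like cells (8 and 33 UMIs). All of the proximal tubule-like UMIs of Cyp4v3 lay in the injured cluster (409 I-PpoI and 18 wild-type cells), within which no ratio is drawn. The difference between the classes was not tested, since each group has 1 library, and the intervals of the 3 ratios do not overlap 1 for counting error only. In proximal tubule-like cells the markers of macrophage-like cells, which also hold Cyp4v3, summed to 92.4 CPM in I-PpoI and 7.80 CPM in wild-type cells, and their part was not tested.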

How the results depend on the processing

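The sums over proximal tubule-like cells stayed lower in I-PpoI cells under every alternative run. The log2 ratio of the Cyp4 sum (-2.30) became -2.54 with a mitochondrial limit of 25%, -2.23 with no doublets left out, -2.21 and -2.18 at Leiden resolutions 0.5 and 2, -2.16 with each cell classed by its own marker score, -2.05 after thinning, -2.56 without mitochondrial genes, -2.65 also without the 20 top genes and -2.70 with median-of-ratios scaling. The Cyp2 sum (-2.01) became, in the same order, -2.12, -1.95, -1.93, -1.89, -1.89, -1.75, -2.28, -2.37 and -2.41. Median-of-ratios scaling takes out the all-gene median of 0.40. In an alternative chosen after seeing the data, without the injured cluster, the sums were -0.79 (Cyp4) and -0.56 (Cyp2), 5 members in place of 13 were 2-fold lower, and Cyp2d12 (0.97), Cyp4a31 (0.25) and Cyp2c23 (0.77) reversed. In the cluster shared by both libraries, the Cyp4 log2 ratio of 0.59 became -0.83 at resolution 0.5, and 5 other settings left no such cluster and gave no value. The 4 members that were 2-fold higher became 7 with a minimum of 10 UMIs, 2 with a minimum of 200 UMIs and 1 after thinning. The causes were not tested. No paired analysis was possible because each group has 1 library, and leaving out a replicate was not possible for the same reason. Populations of 11 to 58 I-PpoI cells limit the segment ratios, and variation between animals could not be measured.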

Other observations

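Of the 4 members with at least 50 and under 200 UMIs, Cyp4a12b had 12.3 CPM (70 UMIs) in I-PpoI and 11.4 CPM (105 UMIs) in wild-type proximal tubule-like cells, a ratio of 1.08 (0.784 to 1.47), beside 0.143 for Cyp4a12a with which it shares 37.0% of its 3′ words. Cyp2j9 had 49 and 63 UMIs there (1.26, 0.847 to 1.85). For macrophage-like cells, the vitamin D hydroxylase Cyp2r1 took 27 of 14925158 UMIs (I-PpoI library) and 5 of 904843 UMIs (wild-type library). Its share of the UMIs was thus lower in the I-PpoI library, on few UMIs. The proximal tubule-like cells of each library held 10 Cyp2r1 UMIs. Cyp4f17 had 17 UMIs in I-PpoI and 12 in wild-type proximal tubule-like cells. The other 18 detected members had 1 to 23 UMIs, and 13 of them fewer than 4.

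In wild-type fibroblast-like cells, 22 of the 24 Cyp2e1 UMIs lay in 1 of 32 cells.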
